A study of Mus musculus with 18 samples.

Results

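The comparison described here sets macrophages given apoptotic bodies, group STSABs, against macrophages of the inflamed control, group LPS. Its members were taken from the sample labels alone: 10 of the 18 libraries of the series, n = 5 in each of the STSABs and LPS groups. All were made from polyadenylated RNA of bone marrow macrophages from mice, a cell type commonly used as a model of tissue macrophages. The LPS group received lipopolysaccharide, the outer-membrane component of Gram-negative bacteria. The STSABs group received apoptotic bodies, membrane-wrapped fragments shed by dying cells, taken from the cells that the labels name hucMSC after induction with STS (a usual abbreviation of staurosporine, a kinase inhibitor that triggers apoptosis, which the labels do not spell out). A mock group, Con (n = 3), and a group given bodies of the same cells induced with UV, UVABs (n = 5), serve only as points of reference. The labels give no dose, time, mouse strain or age, and do not say whether STSABs macrophages also received LPS or whether libraries came from separate cultures or animals, so p-values reflect library-to-library spread that may be technical.

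Lipopolysaccharide binds Toll-like receptor 4 and its co-receptor Cd14 and switches on NF-kB, AP-1 and interferon regulatory factors, which drive cytokine, chemokine and interferon-stimulated genes. Macrophages also adjust energy and biosynthetic programmes when activated. The hypoxia-inducible factor HIF-1 raises glucose uptake and glycolysis and limits mitochondrial use of pyruvate. The factor ATF4 raises amino acid synthesis and stress genes, and the kinase mTORC1 drives ribosome production.

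Counts in the 10 libraries summed to between 17588357 and 18675283. Within each group the 5 libraries correlated at 0.988 to 0.994 in log2 CPM (read counts scaled to library size, with TMM factors) and no pair was alike to within counting noise. On principal components of the 10 libraries the first component held 61.8% of the variance and parted the groups without overlap, at -30.9 to -28.1 for LPS and 22.4 to 41.3 for STSABs. Replicate 2 of UVABs, outside this comparison, deviated from its group mean in a similar way to replicate 2 of STSABs (r = 0.54). Replicate 2 of STSABs stood apart: it lay at -26.8 on the second component, on which the other 9 libraries ranged from -7.21 to 12.3. Values without it are given beside some of the results that it moved. The genes in which it lay farthest from the other STSABs libraries are listed near the end, and a result without such a value may also have moved.

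Levels are given as the group mean of CPM ± SD (n = 5 in LPS and STSABs, n = 3 in Con), changes are log2 fold changes of STSABs over LPS ± SE from edgeR's quasi-likelihood fit, and each SE was approximated from the change and its F statistic, as the absolute change over the root of F. CPM is not corrected for gene length, so levels are compared between groups and not between genes. TMM factors were 1.51 to 1.52 in Con, 0.895 to 0.913 in LPS and 0.925 to 0.939 in STSABs. Levels in Con are thus lower beside the other groups than library totals alone would give. Differences from Con were not examined under other scalings. Counts of Aars, Eef1a1, Scd2, Ifit1, Apol9a, Apol9b, Tlr7, Mertk, Acot1, Amd1 and Lyz2 were not whole numbers in most libraries, so reads may have been divided between similar or overlapping genes and their values are uncertain. The words rose and fell are used of genes whose Benjamini-Hochberg adjusted p over all 12465 tested genes was under 0.05.

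Of the 12465 genes, 3544 were higher in STSABs than in LPS (28.4%) and 3614 lower (29.0%). Changes of at least 2-fold numbered 603 upward (4.84%) and 311 downward (2.49%). All 5 STSABs libraries lay above all 5 LPS libraries in 2578 genes (20.7%) and below them in 2714 genes (21.8%). The median change over all tested genes was -0.01, and that of the absolute change among called genes was 0.44. Gene lists are described beside these shares of 28.4% and 29.0%. The lists and their members were chosen with earlier results of these data known, so their counts are descriptions.

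**Figure D1:**
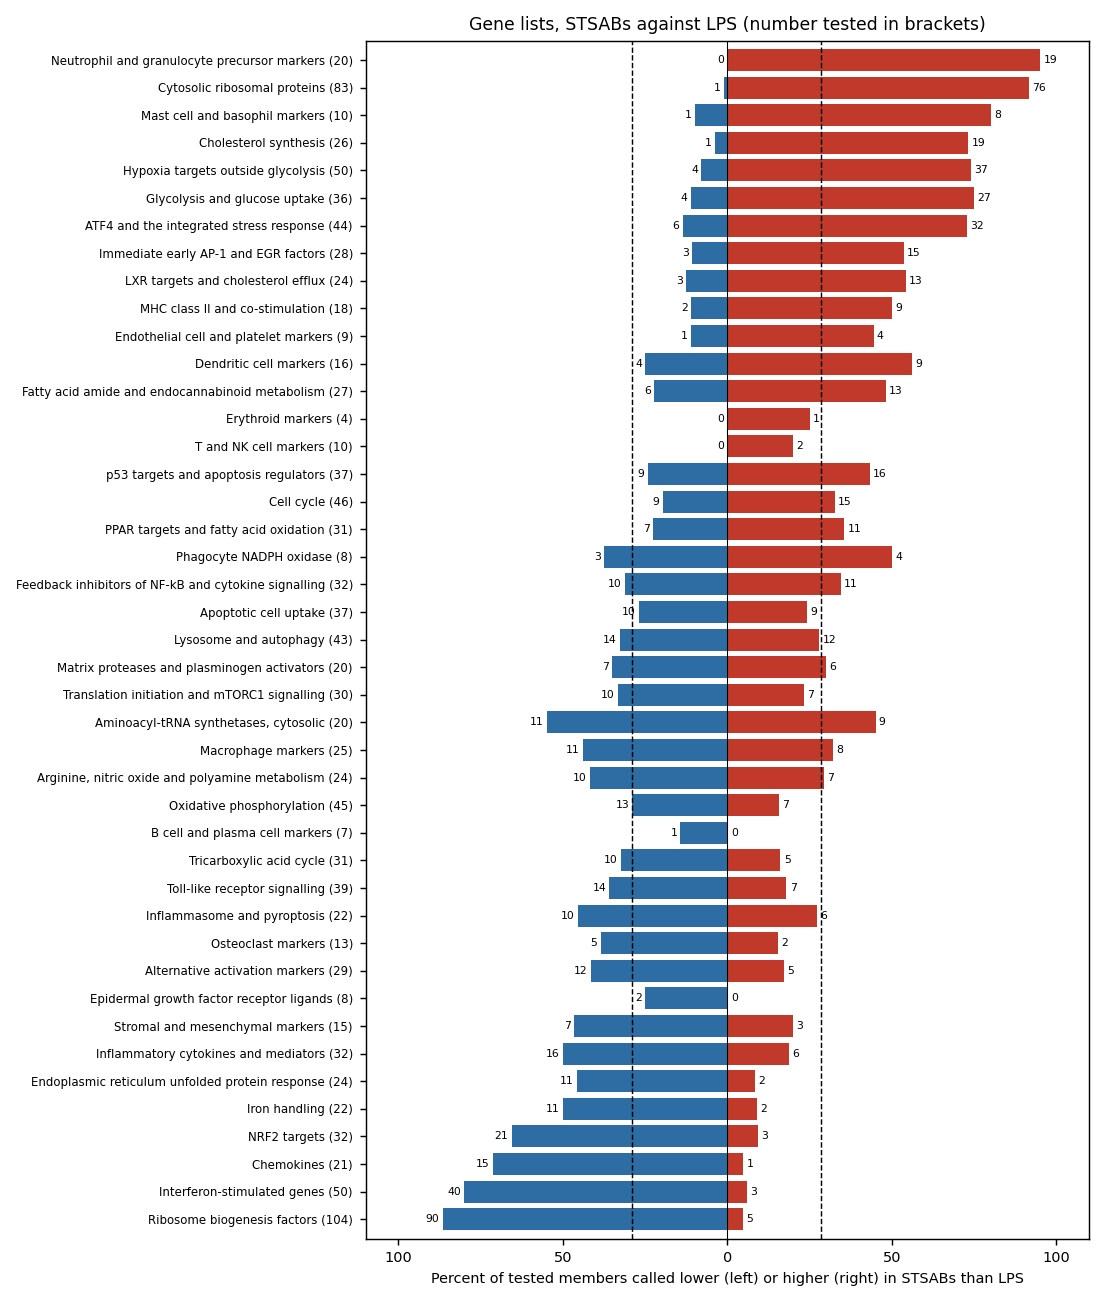
Share of tested members of each gene list that were called higher (right, red) or lower (left, blue) in STSABs than in LPS, with counts at the bar ends; the dashed lines are the shares over all tested genes, 28.4% higher and 29.0% lower. Hypoxia, glycolysis, ATF4, cholesterol synthesis, ribosomal protein and neutrophil lists extend far to the right, and interferon, chemokine, NRF2 and ribosome biogenesis lists far to the left.

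Genes that mark LPS stimulation stayed far above the mock level in STSABs. Il6, a pro-inflammatory cytokine, was at 3.8 ± 0.502 CPM in Con, 1339 ± 44.5 in LPS and 868 ± 50.4 in STSABs. Cxcl10, an interferon-induced chemokine, was at 1.9 ± 0.63, 4601 ± 183 and 3509.8 ± 293 CPM in the same order. For both genes the LPS and STSABs libraries lay far above those of Con.

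Most listed hypoxia target genes rose. Of 50 tested hypoxia targets outside glycolysis, 37 were higher in STSABs, 4 lower and 9 not called, with a median change of 0.73. In that list 17 members rose at least 2-fold and 0 fell by as much. HIF-1 is held in check by prolyl hydroxylases that mark its alpha subunit for degradation, and several of its targets feed back on it.

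Bnip3, a receptor that directs mitochondria to autophagy, was at 18.4, 25.9, 26.2, 21.3 and 32.8 CPM in LPS libraries 1 to 5 and at 142, 132, 141, 125 and 141 CPM in STSABs libraries 1 to 5. The STSABs libraries were close to one another and all lay above every LPS library (2.45 ± 0.10; edgeR quasi-likelihood, Benjamini-Hochberg adjusted p = 8.52e-14). Its level in Con was 51 ± 6.03 CPM, between the groups. Egln3, one of the prolyl hydroxylases, was at 13.8, 18.9, 17.1, 13.2 and 22.3 CPM in LPS and 97.4, 112, 83.1, 68.7 and 81.1 CPM in STSABs (2.37 ± 0.14). The related Egln1 was at 16.9, 22.5, 22.7, 18 and 20.01 CPM in LPS and 84.4, 81.1, 76.3, 74.4 and 72.1 CPM in STSABs (1.96 ± 0.07). For both enzymes the groups were apart with no overlap.

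Vegfa, the angiogenic growth factor, was at 65.2, 97.2, 94, 80.4 and 113 CPM in LPS and 349, 595, 351, 321 and 338 CPM in STSABs (2.12 ± 0.18, 1.92 without replicate 2 of STSABs). Replicate 2 was the highest STSABs library there, as it was for Ddit4 and Hilpda. Ddit4, which inhibits mTORC1, was at 1.86, 2.12, 1.04, 1.44 and 2.88 CPM in LPS and 18, 41.2, 13.7, 11 and 14.5 CPM in STSABs (3.39 ± 0.47, 2.93 without that library). Hilpda, which coats lipid droplets and slows fat breakdown, was at 6.22, 11.9, 10.3, 8.1 and 13.2 CPM in LPS and 44, 87.5, 39.7, 42.6 and 39.1 CPM in STSABs (2.35 ± 0.27, 2.06 without that library). Zfp395, a transcription factor gene, rose from 0.704 ± 0.216 to 3.69 ± 0.543 CPM (2.38 ± 0.20). The 4 members that fell, named after their values were seen, were Epas1, which encodes HIF-2 alpha (-0.89 ± 0.27, not called with replicates 1 to 3 alone at -0.85), Ndufa4l2, a mitochondrial protein gene (-0.88 ± 0.34, -0.25 and not called with replicates 1 to 3 alone), the creatine transporter Slc6a8 (-0.56 ± 0.08) and Hif1an, which hydroxylates HIF (-0.26 ± 0.07).

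**Figure D2:**
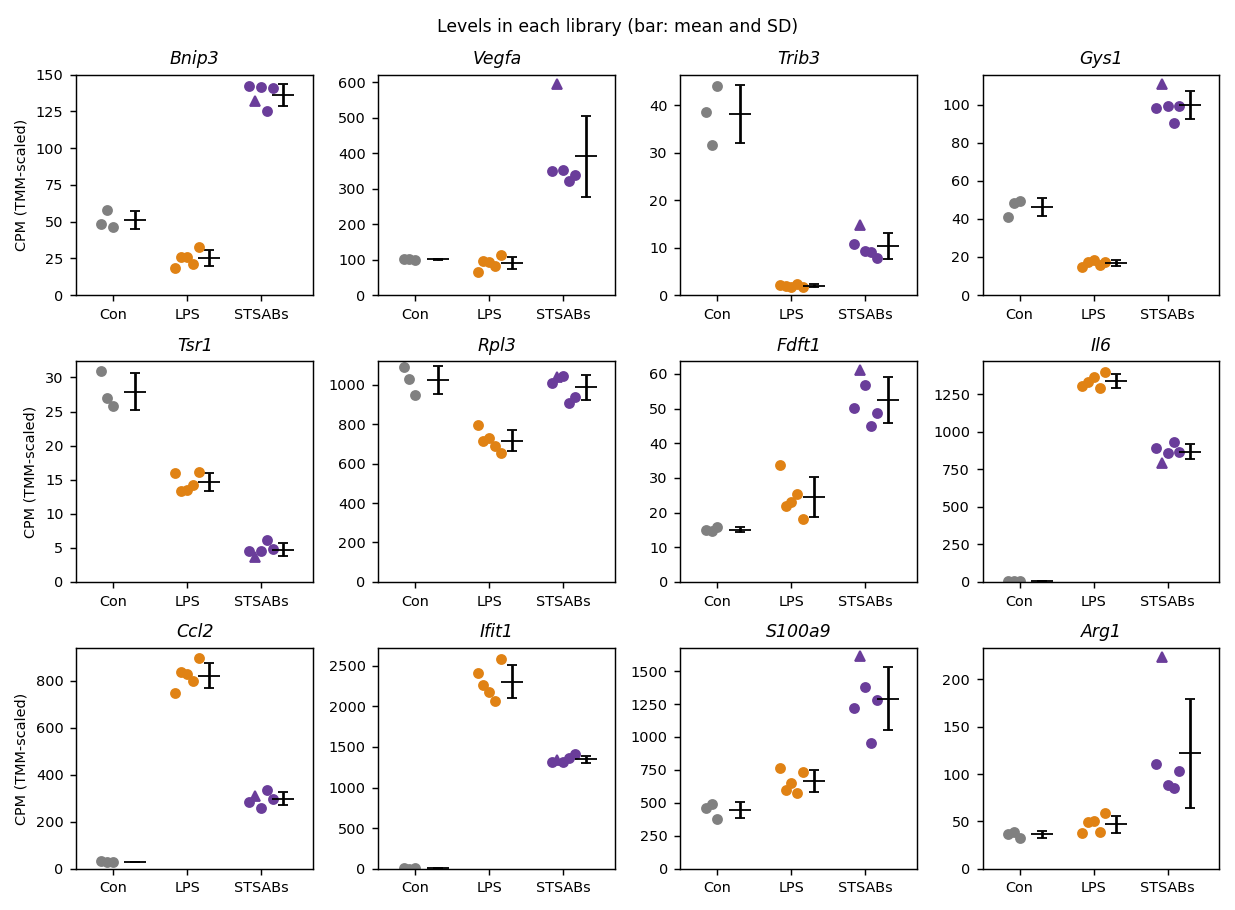
CPM of 12 genes in each library of Con (grey), LPS (orange) and STSABs (purple), on a linear axis from 0; points are libraries and bars the mean and SD. In each panel the 5 LPS and 5 STSABs points do not overlap. Replicate 2 of STSABs, drawn as a triangle, is the highest of its group for Vegfa, Trib3, Gys1, Fdft1, S100a9 and Arg1.

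Glucose uptake and glycolysis genes moved with the hypoxia genes. Of 36 tested members 27 rose, 4 fell and 5 were not called, with a median change of 0.49 against -0.01 over all genes. The summed level of the list was 12300 to 13400 CPM over the LPS libraries and 16000 to 18800 CPM over the STSABs libraries.

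Gys1, the glycogen synthase of muscle and other tissues, was at 14.7, 17.5, 18.4, 15.8 and 17.3 CPM in LPS and 98.4, 111, 99.4, 90.5 and 99.3 CPM in STSABs (2.57 ± 0.07). Slc16a3, which exports lactate, was at 60.6, 76.9, 81.1, 67.7 and 83.1 CPM in LPS and 268, 333, 257, 236 and 260.2 CPM in STSABs (1.87 ± 0.11). Pdk1, a kinase that blocks the entry of pyruvate into mitochondria, was at 17.1, 19.2, 21.1, 17.5 and 17.9 CPM in LPS and 55.8, 50.3, 55.9, 59.8 and 57 CPM in STSABs (1.59 ± 0.07). In these 3 genes no STSABs library reached down to the LPS range. Also higher were Pgm1, which links glycogen to glycolysis (1.59 ± 0.07), Ppp1r3b, which targets a phosphatase to glycogen (1.53 ± 0.14), and Pfkl, a phosphofructokinase (1.53 ± 0.10). The 4 members that fell, named after their values were seen, were the glucose transporter Slc2a6 (647 ± 22.5 to 343 ± 19.4 CPM, -0.91 ± 0.05), the lactate dehydrogenase subunit Ldhb (-0.81 ± 0.12), the aldolase Aldoc (-0.41 ± 0.07) and the glycogen branching enzyme Gbe1 (-0.27 ± 0.08). Nos2 and Arg1, which compete for arginine and stand in the hypoxia list too, differed: Nos2 did not pass (0.15 ± 0.12, adjusted p = 0.291), while Arg1 rose from 37.8, 49.4, 49.9, 38.5 and 59.1 CPM to 111, 223, 88, 85.2 and 103 CPM (1.38 ± 0.30, 1.04 without replicate 2 of STSABs, its highest library).

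Because hypoxia genes rose together, the promoters of some are shown with the core of the hypoxia response element, ACGTG on either strand, in capitals. The stretches lie upstream of the gene start and come from RefSeq on GRCm38.p6, an older build than the mm39 named in the submitters' processing notes. Bnip3 lies at chr7:138909584-138909638, minus strand, Egln3 at chr12:54204074-54204124, minus strand, Ddit4 at chr10:59951928-59951982, minus strand, and Slc16a3 at chr11:120949028-120949066, plus strand.
Bnip3: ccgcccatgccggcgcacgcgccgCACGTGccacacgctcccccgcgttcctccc
Egln3: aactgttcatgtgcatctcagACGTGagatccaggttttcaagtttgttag
Ddit4: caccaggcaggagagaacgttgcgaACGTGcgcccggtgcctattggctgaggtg
Slc16a3: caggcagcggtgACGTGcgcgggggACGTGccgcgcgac
In Bnip3 the capitals hold overlapping matches on both strands. Over the 250 bases upstream of the gene start, ACGTG occurred in 20 of 37 windows of the hypoxia genes that rose (54.1%) and in 15 of 36 windows of the glycolysis genes that rose (41.7%). Over all tested members, called or not, the shares were similar, at 52.1% for the hypoxia list and 39.6% for the glycolysis list. The hypoxia list was assembled from known HIF-1 targets and many glycolysis genes are such targets, so these shares describe the lists. Over all promoters the share was 16.6%, over all tested genes 21.4%, over all genes that rose 21.3% and over all that fell 22.7%. The share among all genes that rose was close to that among all tested genes, and among those that rose at least 2-fold it was 19.7%. Windows were matched by symbol for 2808 of 3544 genes that rose.

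Genes of the integrated stress response formed another rising group. ATF4 is translated when the initiation factor eIF2 is phosphorylated, and it raises genes for amino acid synthesis and import. Of 44 tested members 32 rose, 6 fell and 6 were not called (median change 0.54). The summed level overlapped between the groups, at 2860 to 3110 CPM over the LPS libraries and 3030 to 3270 CPM over the STSABs libraries. Trib3, a pseudokinase that dampens ATF4, was at 2.21, 1.88, 1.65, 2.28 and 1.66 CPM in LPS and 10.8, 14.8, 9.34, 9.12 and 7.75 CPM in STSABs (2.41 ± 0.19). Chac1, which degrades glutathione, was at 0.419, 0.727, 0.674, 0.6 and 0.368 CPM in LPS and 3.19, 5.96, 2.58, 2.46 and 3.41 CPM in STSABs (2.64 ± 0.34). Both were low in LPS compared with Con (38.2 ± 6.2 CPM for Trib3 and 5.7 ± 1.66 CPM for Chac1), and the STSABs means lay between those of LPS and Con.

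Eif4ebp1, which restrains translation initiation when mTORC1 is off, was at 11.1, 11.8, 11.6, 9.97 and 10.2 CPM in LPS and 38.4, 41.7, 35.6, 31.5 and 31.9 CPM in STSABs (1.71 ± 0.10). Stc2 (1.68 ± 0.21), a secreted glycoprotein gene, and Nupr1 (1.64 ± 0.11), a stress-induced chromatin protein gene, rose too. In the list of mTORC1 and translation initiation genes, several inhibitors of the kinase rose: Sesn2, a leucine sensor, from 11.3 ± 0.81 to 32 ± 6.52 CPM (1.5 ± 0.12), and Castor1, an arginine sensor, from 2.63 ± 0.212 to 8.43 ± 2.37 CPM (1.67 ± 0.18), besides Ddit4. Akt1s1, which encodes PRAS40, also an inhibitor, fell from 89.1 ± 10.2 to 51.7 ± 5.51 CPM (-0.78 ± 0.09). That list as a whole had 7 members higher (23.3%) and 10 lower (33.3%) of 30, near the shares over all genes.

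Cytosolic aminoacyl-tRNA synthetases, which load amino acids onto tRNAs, moved both ways: of 20 tested, 9 rose and 11 fell, each past the threshold. Mars1 for methionine (0.82 ± 0.08), Sars for serine (0.74 ± 0.07), Cars for cysteine (0.72 ± 0.05) and Aars for alanine (0.52 ± 0.05) rose most, while Farsb, a subunit for phenylalanine (-0.62 ± 0.07), and Kars for lysine (-0.50 ± 0.04) fell most. Genes of the endoplasmic reticulum unfolded protein response behaved differently from the ATF4 list: of 24 tested, 2 rose and 11 fell. Dnajb9, a chaperone cofactor (-0.56 ± 0.09), Selenos (-0.54 ± 0.06) and Herpud1 (-0.50 ± 0.09), which take part in removal of misfolded proteins, were lower. Derl3 (0.92 ± 0.29, 0.64 and not called with replicates 1 to 3 alone) and Sdf2l1 (0.41 ± 0.07, named after its value was seen) were higher.

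Ribosome production genes and ribosomal protein genes moved in opposite directions. Ribosome biogenesis factors process ribosomal RNA and assemble the subunits in the nucleolus, and a list of them, assembled after these values had been seen, had 5 of 104 members higher, 90 lower and 9 not called, with a median change of -0.68 and 26 members down at least 2-fold. The number that rose was 3 without any 1 of replicates 1 or 3 of STSABs or replicates 2, 3 or 4 of LPS. Under the 22 other settings of the analysis 82 to 91 members fell. The summed level was 2840 to 3080 CPM over the LPS libraries and 2180 to 2380 CPM over the STSABs libraries.

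Tsr1, needed for maturation of the small subunit, was at 16, 13.3, 13.5, 14.2 and 16.1 CPM in LPS and 4.46, 3.65, 4.55, 6.14 and 4.88 CPM in STSABs (-1.62 ± 0.11). Noc3l, a nucleolar assembly factor, was at 11.5, 10.4, 9.07, 10.5 and 11 CPM in LPS and 4.23, 3.28, 3.83, 3.04 and 3.88 CPM in STSABs (-1.52 ± 0.11). Nop58, a core protein of the particles that methylate ribosomal RNA, was at 15, 13.7, 14.5, 13.3 and 14.9 CPM in LPS and 4.23, 5.53, 5.81, 6.26 and 4.88 CPM in STSABs (-1.42 ± 0.10). In all 3 the STSABs libraries lay wholly below the LPS libraries. Wdr75 (-1.45 ± 0.10), part of the early small-subunit complex, and Gnl3 (-1.41 ± 0.12), the nucleolar GTPase nucleostemin, fell as well. Pprc1, a coactivator that responds to growth signals, stood among the 25 largest decreases at 21 ± 1.36 to 7.26 ± 0.585 CPM (-1.53 ± 0.09).

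Of 83 tested genes with symbols of cytosolic ribosomal proteins, 76 rose, 1 fell and 6 were not called. The changes were small, with a median of 0.28, and 0 reached 2-fold. Rpl3, a large-subunit protein, was at 794, 714, 728, 688 and 651 CPM in LPS and 1009, 1039.9, 1042, 905 and 938 CPM in STSABs (0.46 ± 0.06). The only member that fell was Rpl7l1, a protein related to Rpl7 that acts in ribosome assembly (71.6 ± 3.27 to 43.4 ± 1.81 CPM, -0.72 ± 0.05). Eef1a1 and Eef2, the translation elongation factors, rose with the ribosomal proteins (0.32 ± 0.05 and 0.51 ± 0.05). Eef1a1 had the largest increase in CPM of any gene, from 6703 ± 385 to 8362 ± 314. Any RNA carried by the apoptotic bodies was not told apart from macrophage RNA, and its part in these levels was not tested.

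**Figure D3:**
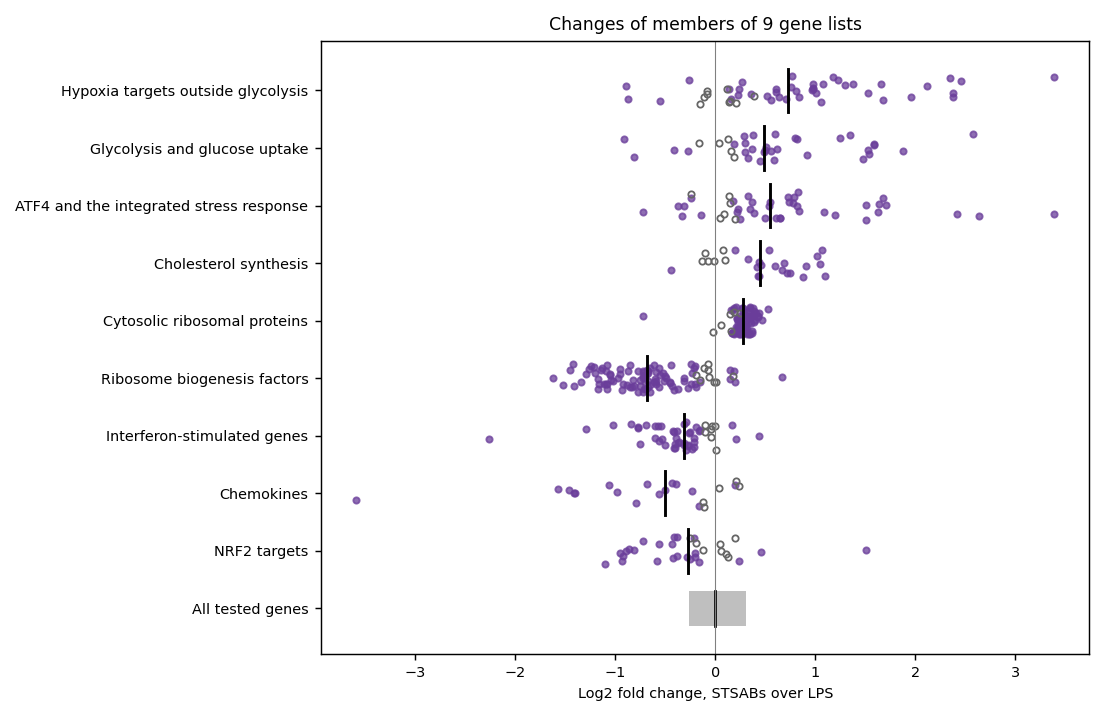
Log2 fold change of STSABs over LPS for every tested member of 9 gene lists and, at the bottom, the 25th to 75th percentile of all tested genes (grey band, line at the median); each point is a gene, filled where called, and vertical ticks are list medians. Ribosome biogenesis factors lie mostly left of 0 (median -0.68) and cytosolic ribosomal proteins close to and right of 0 (median 0.28).

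Most sterol synthesis genes rose. These enzymes turn acetyl-CoA into cholesterol under the control of SREBP2, and 19 of 26 tested members were higher in STSABs, 1 lower and 6 not called (median change 0.45). Fdft1, squalene synthase, was at 33.8, 21.9, 23.2, 25.5 and 18.2 CPM in LPS and 50.3, 61.3, 56.9, 44.9 and 48.6 CPM in STSABs (1.1 ± 0.12). Mvd (1.07 ± 0.12), Sc5d (1.04 ± 0.11) and Fdps (1.02 ± 0.12), which act before or after squalene, and the sterol carrier Stard4 (0.90 ± 0.12) rose too. The member that fell, named after its value was seen, was Scap, which escorts SREBP2 to the Golgi (-0.44 ± 0.06). No STSABs library of Fdft1 overlapped with LPS, although LPS replicate 1 lay above the other LPS libraries.

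LXR targets and cholesterol efflux genes had 13 of 24 members higher and 3 lower. Scd2, which introduces a double bond into fatty acids, was at 35.4, 36, 36.6, 35.2 and 33.9 CPM in LPS and 110.2, 129, 124, 119 and 124 CPM in STSABs (1.77 ± 0.05), with 411 ± 13.3 CPM in Con. Cyp27a1, a sterol 27-hydroxylase, rose from 16.2 ± 1.64 to 41 ± 6.65 CPM (1.34 ± 0.12), and Ch25h, the 25-hydroxylase whose product restrains SREBP2, fell from 562, 632, 658, 626 and 663 CPM to 335, 239, 315, 345 and 336 CPM (-1.0 ± 0.08). The other members that fell were Lipa, the lysosomal lipase (-0.64 ± 0.05), and Npc1, the lysosomal cholesterol exporter (-0.55 ± 0.05, named after its value was seen).

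The series title points to linolamide, a fatty acid amide, in apoptotic bodies, so genes of fatty acid amide and endocannabinoid metabolism were examined. Faah, the hydrolase that breaks down fatty acid amides, was at 24, 23.4, 21.1, 22.9 and 22.2 CPM in LPS and 66.2, 51.1, 65.3, 55.6 and 64.6 CPM in STSABs (1.41 ± 0.09, adjusted p = 4.18e-11). Its level in Con was 0.615 ± 0.0719 CPM, so it was lowest in Con and highest in STSABs, with no overlap between LPS and STSABs. Fads2, a desaturase of linoleic acid, was at 4.43, 2.48, 2.82, 3.66 and 2.03 CPM in LPS and 7.94, 13.5, 12, 8.95 and 10.8 CPM in STSABs (1.78 ± 0.16), and Fads1 (0.68 ± 0.11) and Elovl5 (0.76 ± 0.06), which extend the same pathway, rose too. Gdpd3, which acts on lysophospholipid precursors, rose from 0.266 ± 0.124 to 0.689 ± 0.179 CPM (1.34 ± 0.34). In the list as a whole 13 of 27 members rose and 6 fell, the latter including Mgll, the monoacylglycerol lipase (-0.52 ± 0.10, named after its value was seen). Naaa, another amidase of fatty acid amides, was called lower at -0.16 ± 0.06, and lost that call under 5 settings, among them without replicate 2 of STSABs (-0.12); it was also named after its value was seen.

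Inflammatory cytokines and mediators fell more often than they rose. Of 32 tested members 6 rose, 16 fell and 10 were not called (median change -0.34), against 28.4% and 29.0% of all genes. Tnf, which activates endothelium and other macrophages, was at 590.5, 617, 635, 632 and 589 CPM in LPS and 419.5, 292, 413, 399 and 405 CPM in STSABs (-0.67 ± 0.10, adjusted p = 6.19e-06). Il6 was at 1306, 1330, 1368, 1291 and 1399 CPM in LPS and 894, 795, 857, 931 and 863 CPM in STSABs (-0.63 ± 0.05). Replicate 2 of STSABs was the lowest library for both, and neither gene's groups overlapped.

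Il1a and Il33, interleukin-1 family members that act as alarm signals, fell further. Il1a was at 2007, 2082, 2061, 2021 and 1884 CPM in LPS and 928, 872, 873, 1114 and 969.6 CPM in STSABs (-1.08 ± 0.08), and Il33 at 45.6, 57.6, 52, 46.7 and 64.3 CPM in LPS and 17, 14.6, 13.3, 17.7 and 14.7 CPM in STSABs (-1.78 ± 0.11). Il1f6, which encodes interleukin-36 alpha of the same family, fell from 8.85 ± 1.03 to 2.3 ± 0.57 CPM (-1.94 ± 0.20) and was at 0 CPM in Con. By contrast Il1b, the main secreted member, was at 4538, 4478, 4622, 4498 and 4083 CPM in LPS and 3678, 4145, 3423, 3931 and 3721 CPM in STSABs, where replicate 2 reached into the LPS range (-0.23 ± 0.07, adjusted p = 0.0102). With replicates 1 to 3 alone Il1b was -0.27 and did not pass. Edn1, the vasoconstrictor endothelin-1, fell from 51.3 ± 2.91 to 15.4 ± 3.23 CPM (-1.73 ± 0.13), and Il10, the anti-inflammatory cytokine, from 18.4, 22.5, 21, 18.9 and 24.9 CPM to 11.2, 6.99, 11.7, 8.89 and 10.9 CPM (-1.09 ± 0.13).

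The cytokines that rose were Lif, of the interleukin-6 family, Il23a, the p19 subunit of interleukin-23, Tnfsf9, the ligand of the co-stimulatory receptor 4-1BB, Ltb, Ptges and Ebi3, the last 3 named after their values were seen. Lif was at 15.5, 15, 17, 16.4 and 20.6 CPM in LPS and 57.9, 85.6, 51, 53 and 59.9 CPM in STSABs (1.86 ± 0.14). Il23a was at 17.6, 20.9, 21.1, 21.4 and 20.3 CPM in LPS and 75.9, 89.6, 54.4, 61.5 and 69.2 CPM in STSABs (1.79 ± 0.14), against 0.108 ± 0.036 CPM in Con. Tnfsf9 was at 24.3, 28.1, 28.8, 27.8 and 27.1 CPM in LPS and 91.3, 87.6, 84.6, 67.4 and 86.4 CPM in STSABs (1.62 ± 0.08). In each of the 3 all STSABs libraries were above all LPS libraries. Il12b, whose product pairs with that of Il23a, was 3742 ± 500.5 CPM in LPS and 2928 ± 735 in STSABs and did not pass (-0.35 ± 0.17, adjusted p = 0.0884). It passed without LPS replicate 5 (-0.43), without the libraries numbered 2 of both apoptotic body groups (-0.20) and in the fit blocked on replicate number (-0.41). Ltb rose from 5.46 ± 1.07 to 11.6 ± 1.32 CPM (1.09 ± 0.13), Ptges, the prostaglandin E synthase, by 0.77, and Ebi3, a subunit of interleukins 27 and 35, by 0.30.

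**Figure D4:**
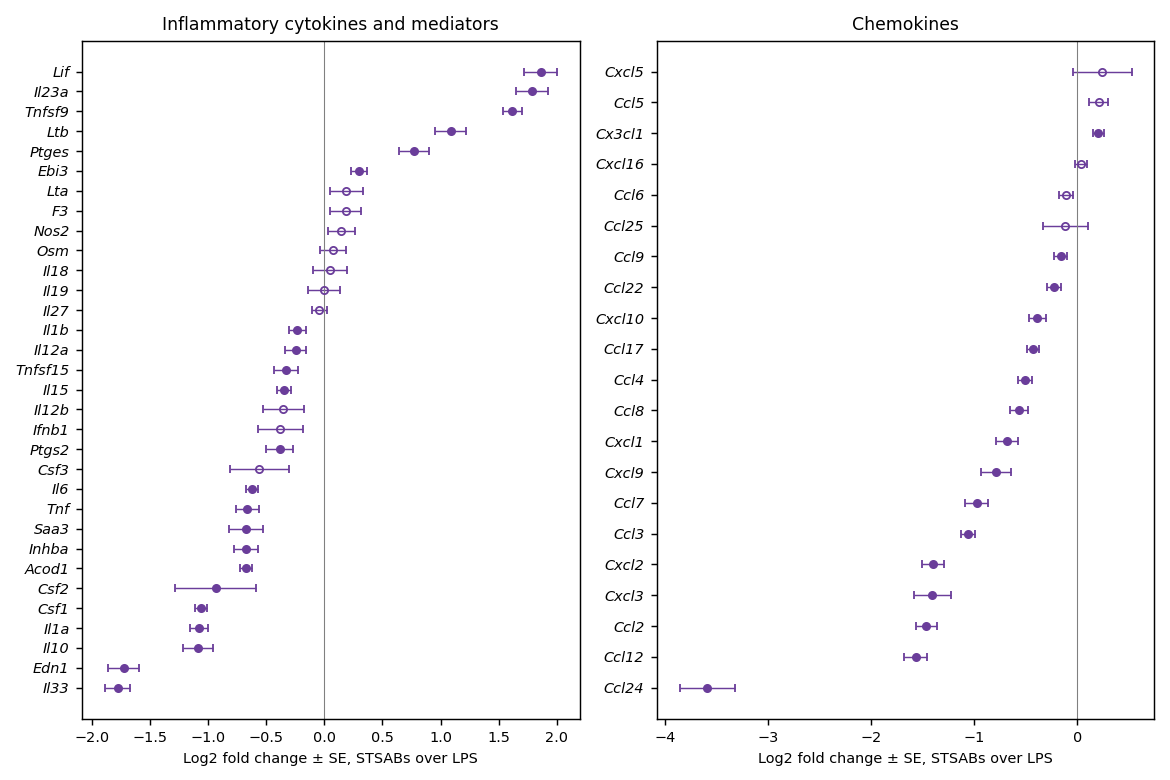
Log2 fold change ± SE of STSABs over LPS for the tested inflammatory cytokines and mediators (left) and chemokines (right), ordered by change; filled points passed the test and open points did not. Ccl24 lies lowest among chemokines at -3.59, and Lif, Il23a and Tnfsf9 lie above 1.5 among the cytokines.

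Most chemokines fell: of 21 tested, 15 were lower, 1 higher and 5 not called (median change -0.51). Ccl2, the main attractant of monocytes, was at 749, 835, 829.8, 796 and 894 CPM in LPS and 282, 311, 259.9, 335 and 298 CPM in STSABs (-1.46 ± 0.10). The neutrophil attractants Cxcl2, at 360.5, 425, 435, 424 and 376 CPM in LPS and 136, 176, 147, 170.2 and 136 CPM in STSABs (-1.4 ± 0.11), and Cxcl3, at 1233 ± 106 and 465 ± 89.8 CPM (-1.41 ± 0.18), fell by as much. Ccl24, which attracts eosinophils, was at 14.8, 13, 12.6, 8.16 and 19.5 CPM in LPS and 1.45, 0.486, 1.5, 0.994 and 1.18 CPM in STSABs (-3.59 ± 0.27), and at 0.819 ± 0.186 CPM in Con. Ccl12 (-1.57 ± 0.11), a relative of Ccl2, and Ccl3 (-1.06 ± 0.07), which attracts monocytes and T cells, fell as well, and so did Ccl1, outside the list (-1.83 ± 0.16). The member that rose, named after its value was seen, was Cx3cl1, a membrane-bound chemokine (0.20 ± 0.05). Ccl5 did not pass (0.21 ± 0.09, adjusted p = 0.0577), but was called higher under 10 other settings, so that 2 chemokines were higher without replicate 4 of STSABs or without replicate 5 of LPS. Ccl22, a ligand of Ccr4, fell from 18967 ± 796 to 16195 ± 1112 CPM (-0.23 ± 0.06), a call lost with replicates 1 to 3 alone (-0.19).

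Interferon-stimulated genes fell broadly and by less than 2-fold for the most part. These genes respond to type I interferon and restrict viruses and intracellular bacteria. Of 50 tested members 40 fell, 3 rose and 7 were not called (median change -0.31), and 3 fell at least 2-fold. Ifnb1, the interferon gene itself, was at 1.71 ± 0.379 CPM in LPS and 1.31 ± 0.133 in STSABs and did not pass (-0.38 ± 0.19, adjusted p = 0.1); without LPS replicate 5 it passed at -0.49.

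Ifit1, which binds viral RNA, was at 2412, 2259, 2181, 2062 and 2585 CPM in LPS and 1314, 1339, 1308, 1364 and 1409 CPM in STSABs (-0.77 ± 0.07). Its relative Ifit1bl1 was at 1375, 1105, 1096, 1155 and 1179.6 CPM in LPS and 584, 588, 523, 623 and 598 CPM in STSABs (-1.02 ± 0.07). Irgm1, an immunity-related GTPase that acts on vacuoles with bacteria, was at 1097, 1050.1, 1014, 986 and 1101 CPM in LPS and 612, 574, 622, 644 and 630.0 CPM in STSABs (-0.77 ± 0.05). The STSABs libraries of these 3 genes were close together and below every LPS library. Apol9a (-2.26 ± 0.10) and Apol9b (-1.29 ± 0.10) fell furthest, and Apol9a was at 0 CPM in Con. Rsad2, the antiviral enzyme viperin, fell from 5429.5 ± 519 to 4119.9 ± 163 CPM (-0.40 ± 0.08). The members that rose, named after their values were seen, were Stat2 (0.44 ± 0.06), Ifitm3 (0.21 ± 0.09) and Helz2 (0.17 ± 0.05). The Ifitm3 call was lost without replicate 2 of STSABs (0.14) and in 7 other settings, and the Helz2 call with replicates 1 to 3 alone (0.18). Ifitm1, of the Ifitm family but outside the list, rose from 481 ± 47.3 to 1309 ± 456 CPM (1.44 ± 0.19).

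Promoter stretches of interferon-stimulated genes that fell are shown with the core of the interferon-stimulated response element, which is a pair of GAAA tetramers with any 2 bases between them, on either strand, in capitals, from the same RefSeq table on GRCm38.p6. Ifit1 lies at chr19:34640779-34640838, plus strand, Irgm1 at chr11:48871421-48871469, minus strand, Rsad2 at chr12:26456538-26456597, minus strand, and Cxcl10 at chr5:92349068-92349127, minus strand.
Ifit1: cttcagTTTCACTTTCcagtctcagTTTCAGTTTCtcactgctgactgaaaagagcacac
Irgm1: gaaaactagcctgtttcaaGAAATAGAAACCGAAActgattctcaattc
Rsad2: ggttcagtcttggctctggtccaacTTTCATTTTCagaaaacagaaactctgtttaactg
Cxcl10: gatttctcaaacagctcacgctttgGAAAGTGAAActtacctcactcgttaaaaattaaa
In Ifit1 and Rsad2 the match is on the other strand and reads as TTTC pairs, and in Irgm1 the capitals hold overlapping matches. The motif occurred in 21 of 41 windows of listed genes that fell (51.2%), against 2.98% of all promoters. Over all tested members of the list, called or not, the share was similar, at 25 of 52 windows (48.1%). Since the list was assembled from genes known to respond to interferon, these shares describe the list. Over all genes that fell the share was 3.65%, over all that rose 2.5%, and over those that fell at least 2-fold 5.05%.

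Upstream signalling genes changed in both directions. Of 39 Toll-like receptor signalling genes 7 rose and 14 fell. Tlr4, the receptor of lipopolysaccharide, was at 66.4, 66, 63.1, 67.1 and 67.9 CPM in LPS and 38.5, 37.1, 32.8, 46 and 41.7 CPM in STSABs (-0.75 ± 0.08), and Cd180, a receptor that restrains it, was at 59.97, 59.98, 57.4, 65.2 and 58.1 CPM in LPS and 29.2, 18.5, 31.6, 37.5 and 29.6 CPM in STSABs (-1.04 ± 0.14). Cd14, the co-receptor, moved the other way, from 645, 748, 798, 687 and 738 CPM to 1079, 1425, 957, 1047 and 1002 CPM (0.61 ± 0.13). Tlr5, the flagellin receptor, was below 1 CPM in both groups (0.0852 ± 0.0698 and 0.295 ± 0.0811 CPM, 1.72 ± 0.54), and its call was lost with replicates 1 to 3 alone (1.26). Of the receptors for nucleic acids, Tlr3 (-0.60 ± 0.09) and Tlr7 (-0.60 ± 0.11, named after its value was seen) fell.

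Genes that restrain NF-kB and cytokine signals were divided, with 11 of 32 higher (34.4%) and 10 lower (31.2%), near the shares over all genes. Zc3h12c, a nuclease of cytokine transcripts, was at 114, 109, 100.1, 110.2 and 107 CPM in LPS and 45.1, 32.6, 49.7, 58.4 and 50.1 CPM in STSABs (-1.2 ± 0.12), the largest decrease of the list. Sigirr, an inhibitory receptor of the interleukin-1 family, rose from 0.412 ± 0.0856 to 1.26 ± 0.38 CPM (1.59 ± 0.27), and Dusp2, a phosphatase of MAP kinases, from 45 ± 1.78 to 68.2 ± 7.7 CPM (0.60 ± 0.09). Immediate early factors of the AP-1 and EGR families rose more often than they fell, 15 against 3 of 28 (median change 0.29). The number that fell was 1 without any 1 of replicates 1, 4 or 5 of STSABs or replicates 2, 3 or 4 of LPS, and also with DESeq2, with the size factors of DESeq2, upper-quartile scaling or library totals, with the stricter filter, with these groups alone and with replicates 1 to 3 alone. Fos was at 17.2, 6.97, 6.8, 8.52 and 6.75 CPM in LPS and 16.2, 56.1, 30.5, 33.2 and 16.6 CPM in STSABs (1.72 ± 0.36), where LPS replicate 1 overlapped with the STSABs range, and Nr4a1, an orphan nuclear receptor induced early, was at 7.24, 8.97, 9.93, 7.86 and 9.45 CPM in LPS and 17.7, 27.8, 18, 17.7 and 19.2 CPM in STSABs (1.21 ± 0.13) with no overlap.

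Targets of NRF2, the regulator of antioxidant genes, mostly fell. Of 32 tested, 21 were lower, 3 higher and 8 not called (median change -0.27). The summed level overlapped between the groups, at 22700 to 27400 CPM over the LPS libraries and 21000 to 27100 CPM over the STSABs libraries. Srxn1, sulfiredoxin, was at 78.5, 92.5, 100.1, 87.5 and 104 CPM in LPS and 46.7, 46.9, 38.3, 43.9 and 40.2 CPM in STSABs (-1.1 ± 0.09). The subunits of the rate-limiting enzyme of glutathione synthesis, Gclm (-0.95 ± 0.10) and Gclc (-0.92 ± 0.12), and the glutathione transferase Gstm1 (-0.93 ± 0.09) fell by similar amounts. Slc7a11, the cystine importer, which also stands in the ATF4 list, fell from 613 ± 25.1 to 371 ± 31 CPM (-0.73 ± 0.07). The 3 that rose were Sesn2, given above, and, named after their values were seen, Gpx4 (0.46 ± 0.09) and Sod1 (0.24 ± 0.10). Sod1 was not called without replicate 2 of STSABs, at 0.14.

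Of 22 iron handling genes 11 fell and 2 rose. Spic, the transcription factor of iron-recycling macrophages, was at 23.2, 18, 17, 16.9 and 25.4 CPM in LPS and 2.26, 2.86, 3.53, 3.04 and 2.47 CPM in STSABs (-2.83 ± 0.16), and Slc40a1, the iron exporter ferroportin, was at 8.8, 8.24, 8.46, 6.78 and 9.02 CPM in LPS and 3.13, 3.04, 2.93, 3.8 and 3.64 CPM in STSABs (-1.32 ± 0.13). Steap4, a metalloreductase, fell too (-1.3 ± 0.25). Hamp, which encodes the ferroportin-blocking hormone hepcidin, rose from 17.7 ± 3.23 to 26.8 ± 2.27 CPM (0.60 ± 0.11), and Lcn2, which binds bacterial iron carriers, from 654 ± 82.4 to 959.7 ± 131 CPM (0.55 ± 0.10, named after its value was seen).

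Markers of alternative activation moved both ways, with 5 of 29 higher and 12 lower. Mrc1, the mannose receptor, was at 128, 129, 119, 122 and 120.2 CPM in LPS and 141, 149.6, 153, 167 and 158 CPM in STSABs (0.32 ± 0.06), a small rise without overlap, while Stab1, a scavenger receptor, fell (-0.76 ± 0.15). Genes of apoptotic cell uptake were likewise divided (9 higher and 10 lower of 37, 12 and 8 with library totals as the scaling). These shares, 24.3% and 27.0%, were near those over all genes. The balance was even or turned in several other settings too, such as 9 and 9 with upper-quartile scaling. Mertk, a receptor for dying cells, fell from 551 ± 22.1 to 368 ± 53.7 CPM (-0.58 ± 0.09, named after its value was seen), and Cd36, a scavenger receptor that binds their lipids, from 586 ± 23.3 to 341 ± 40.3 CPM (-0.78 ± 0.07). Mfge8, a bridging protein between dying cells and macrophages, was at 604, 558, 585, 638 and 488 CPM in LPS and 831, 1730.2, 693, 722 and 781 CPM in STSABs (0.73 ± 0.23), a call that rested on replicate 2, since without it the change was 0.40 and did not pass. It did pass at that value without the libraries numbered 2 of both apoptotic body groups.

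Antigen presentation genes rose more often than they fell. Of 18 genes of MHC class II and co-stimulation 9 rose and 2 fell. H2-Oa, a regulator of peptide loading, was at 27.2, 22.4, 24.3, 21.5 and 22.3 CPM in LPS and 53.4, 46.7, 48.9, 38.3 and 42.3 CPM in STSABs (0.96 ± 0.09), and H2-Ab1, a class II chain, rose from 3431 ± 199.8 to 4244 ± 311 CPM (0.31 ± 0.06). Cd40, a receptor for T cell help, fell from 1686 ± 71.9 to 1071 ± 108 CPM (-0.65 ± 0.08), as did Icosl (-0.42 ± 0.10). Of 22 inflammasome and pyroptosis genes 6 rose and 10 fell, with the pore-forming Gsdme up (1.2 ± 0.19) and the inflammatory caspase Casp4 down (-0.44 ± 0.06).

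The remaining pathway lists held changes in both directions. Among 31 genes of fatty acid oxidation and PPAR targets, 11 rose and 7 fell, with the acyl-CoA thioesterase Acot1 at 1.64 ± 0.46 and the fatty acid binding protein Fabp4 at -1.05 ± 0.22. Oxidative phosphorylation had 7 of 45 genes higher and 13 lower (9 and 7 with library totals as the scaling). The tricarboxylic acid cycle had 5 of 31 higher and 10 lower (9 and 8 with library totals). Its summed level was lower in STSABs without overlap, at 4570 to 4850 CPM against 5920 to 6300 CPM in LPS. Of its members that rose, Pck2, mitochondrial phosphoenolpyruvate carboxykinase and also an ATF4 target, was at 1.5 ± 0.08. Lysosome and autophagy genes had 12 of 43 higher (27.9%) and 14 lower (32.6%), near the shares over all genes (15 and 14 with library totals). Their summed level was lower in STSABs without overlap, at 20900 to 22800 CPM against 24400 to 27300 CPM in LPS. Members with increases included the autophagy protein Wipi1 at 1.09 ± 0.10 and the lysosome regulator Tfeb at 0.79 ± 0.12. Of 46 cell cycle genes 15 rose and 9 fell, with the inhibitor Cdkn1b up from 45.2 ± 1.29 to 111 ± 3.89 CPM (1.3 ± 0.04) and the replication clamp Pcna down from 137 ± 6.18 to 85.6 ± 5.68 CPM (-0.67 ± 0.06). Apoptosis regulators and p53 targets had 16 of 37 higher and 9 lower, with the pro-apoptotic Bmf at 1.24 ± 0.09 and Bid at -0.64 ± 0.08.

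Arginine, nitric oxide and polyamine genes had 7 of 24 members higher and 10 lower (6 and 6 with replicates 1 to 3 alone). The polyamine oxidase Smox rose (1.21 ± 0.16) and Amd1, which commits S-adenosylmethionine to polyamine synthesis, fell (-1.16 ± 0.06). Of 8 NADPH oxidase genes 4 rose and 3 fell, with the catalytic subunit Cybb down from 1955 ± 39.6 to 1451 ± 205 CPM (-0.43 ± 0.08) and the regulator Ncf1 up (0.35 ± 0.05). Matrix proteases and plasminogen activators had 6 of 20 higher (30.0%) and 7 lower (35.0%), near the shares over all genes. The counts were 7 and 7 with library totals and several other settings. Among them Plat, tissue plasminogen activator, rose from 72.3 ± 2.31 to 184 ± 20.3 CPM (1.35 ± 0.08) and the protease inhibitor Timp3 fell (-1.21 ± 0.15). Of 8 ligands of the epidermal growth factor receptor, Ereg was at 14.5, 14.3, 13.5, 15.4 and 11.9 CPM in LPS and 1.8, 2.37, 1.5, 1.99 and 1.53 CPM in STSABs (-2.92 ± 0.15), Hbegf fell too (-0.49 ± 0.09), and the other 6 were not called. Without replicate 2 of STSABs 4 of the 8 ligands were called lower.

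Among the largest changes outside these lists, Klrb1b, a lectin-like receptor gene, was at 5.45, 6, 6.99, 6.78 and 6.14 CPM in LPS and 42.9, 60.7, 38.1, 40.8 and 41.3 CPM in STSABs (2.83 ± 0.18). Gls2, a glutaminase, was at 3.65, 4, 4.53, 3.84 and 4.79 CPM in LPS and 18, 40.2, 14.9, 14.9 and 17.7 CPM in STSABs (2.34 ± 0.33, 1.98 without replicate 2). Cd70, a co-stimulatory ligand, rose from 6.26 ± 0.834 to 22.8 ± 3.25 CPM (1.86 ± 0.13), Pdgfa, a platelet-derived growth factor chain, from 2.51 ± 0.345 to 9.44 ± 2.04 CPM (1.91 ± 0.16), and Ffar2, a receptor for short-chain fatty acids, from 2.29 ± 0.199 to 8.56 ± 1.53 CPM (1.9 ± 0.14). Ramp3, which modifies receptors for adrenomedullin, rose by 1.95 ± 0.48, by 1.27 without replicate 2, and was not called by DESeq2 (1.96). Lad1, which encodes an anchoring filament protein, was at 205, 196, 187, 202 and 176 CPM in LPS and 43, 22.1, 42, 38.1 and 39.9 CPM in STSABs (-2.38 ± 0.17). Serping1, the C1 inhibitor of complement, fell by 1.72 on the log2 scale, St3gal5, which makes the ganglioside GM3, by 1.82, and Slamf8, a receptor of activated myeloid cells, by 1.63.

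By size of the CPM difference, further increases were in Furin, a protein convertase (797 ± 52.8 to 1435 ± 108 CPM, 0.85 ± 0.09), Mxd1, an antagonist of Myc (378 ± 34.9 to 887 ± 80.4 CPM, 1.23 ± 0.07), and Procr, the endothelial protein C receptor (603 ± 64.6 to 1158 ± 284 CPM, 0.94 ± 0.16). Cst3, cystatin C, rose by 0.40 ± 0.13, and by 0.26 without replicate 2, with the call kept. Decreases were in Acod1, which makes itaconate (3919.7 ± 182 to 2449.6 ± 155 CPM, -0.68 ± 0.05), Il1rn, the interleukin-1 receptor antagonist (4012 ± 356 to 2909.7 ± 199 CPM, -0.46 ± 0.06), Slc7a2, an arginine transporter (3529.5 ± 381 to 2503 ± 266 CPM, -0.50 ± 0.08), and Psap, the precursor of the saposins (9590.2 ± 724 to 7448 ± 428 CPM, -0.36 ± 0.06).

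The labelled cell type was checked against its markers, and all 25 macrophage markers were tested. Lyz2, the macrophage lysozyme, was at 9551 ± 477 CPM in LPS and 6975 ± 588 CPM in STSABs (-0.45 ± 0.06). Of the markers 8 rose and 11 fell (10 and 9 with library totals as the scaling, 9 and 9 with the stricter filter or with these groups alone). The summed level was 19900 to 21700 CPM in LPS, 16800 to 18300 CPM in STSABs and 18200 to 19000 CPM in Con. Csf1r, the receptor for the macrophage growth factor, fell from 255 ± 21.4 to 185 ± 11.2 CPM (-0.46 ± 0.07).

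Markers of neutrophils and granulocyte precursors rose: 19 of 20 were higher in STSABs, 0 lower, with a median change of 0.73. Their summed level was 2880 to 3710 CPM in LPS and 4730 to 6620 CPM in STSABs, where replicate 2 was the highest, and 4730 to 5900 CPM without that library. The summed level in Con was 1600 to 1900 CPM, a range that depends on the larger TMM factors of Con. In bulk RNA, more cells of a type and more RNA of its markers per cell cannot be told apart. S100a9, a calcium-binding protein of neutrophils, was at 765, 598, 649, 574 and 733 CPM in LPS and 1220.1, 1612, 1377, 954 and 1282 CPM in STSABs (0.96 ± 0.11), and Ltf, lactoferrin of neutrophil granules, at 129, 95.9, 93.7, 93.1 and 102 CPM in LPS and 234, 251, 233, 159.9 and 266 CPM in STSABs (1.16 ± 0.13). The granule protease genes Ctsg (1.2 ± 0.18) and Prtn3 (0.99 ± 0.14) rose as well, and none of the 4 genes overlapped between the groups. All markers of the list passed the filter on low counts. They differed between the same groups as the lists above, and their part in those results was not tested.

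Mast cell and basophil markers rose too, 8 of 10, with 1 lower. Gata2, a factor of mast cells, basophils and progenitors, was at 17.3, 13.7, 15.3, 15.2 and 15.2 CPM in LPS and 57.8, 88.6, 50.4, 47.8 and 54.3 CPM in STSABs (1.96 ± 0.14), and the basophil protease gene Prss34 rose from 2.1 ± 0.549 to 6 ± 2.65 CPM (1.51 ± 0.23). The list's summed level was 534 to 591 CPM in LPS and 709 to 1020 CPM in STSABs, 709 to 804 CPM without replicate 2. Dendritic cell markers were divided, with 9 higher and 4 lower of 16. Markers of platelets and endothelium had 4 higher and 1 lower of 9, those of mesenchymal and stromal cells 3 higher and 7 lower of 15, and those of osteoclasts 2 higher and 5 lower of 13. Lymphoid and erythroid markers were few and low: T and NK cells had 2 higher and 0 lower of 10, B and plasma cells 0 higher and 1 lower of 7, and erythroid cells 1 higher and 0 lower of 4. Without the libraries numbered 2 of both apoptotic body groups 2 B and plasma cell markers were lower. The summed levels of the lymphoid and erythroid lists in STSABs were 25.5 to 30.5, 61.4 to 71.4 and 28.3 to 32.3 CPM, against 22.2 to 26.3, 57.3 to 91 and 22.7 to 30.9 CPM in LPS. The T cell receptor genes Trac, Trbc1 and Trbc2 and the immunoglobulin genes Ighm and Igkc are not listed in the table under those symbols, and Cd3e, Ms4a1, Col3a1, Dcn and Fcer1a were removed by the filter on low counts. The part of these marker lists in the results was not tested.

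**Figure D5:**
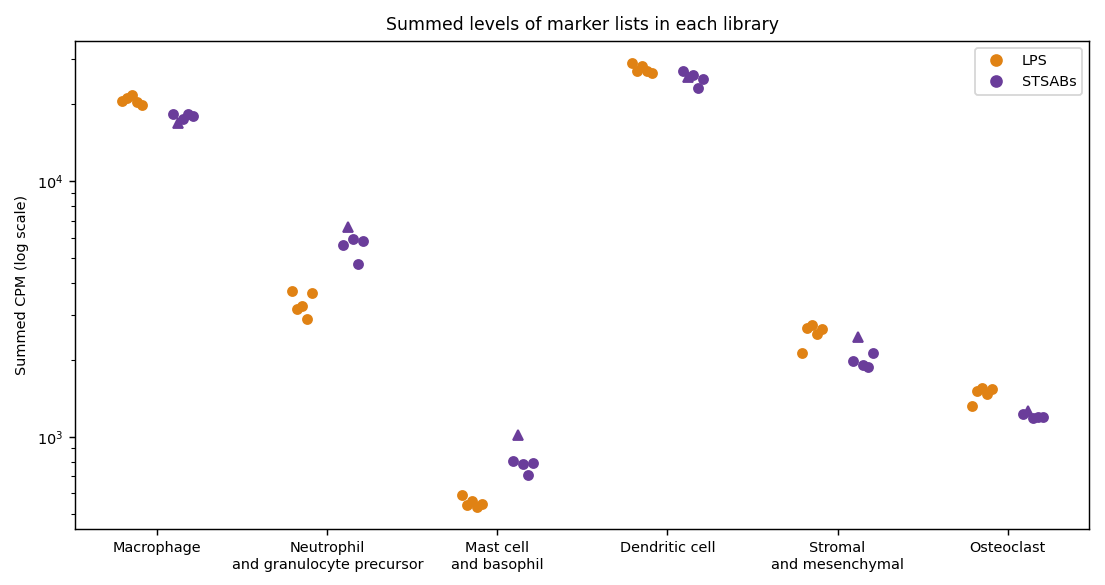
Summed CPM of the tested members of 6 marker lists in each LPS (orange) and STSABs (purple) library, on a logarithmic axis; replicate 2 of STSABs is drawn as a triangle. Neutrophil and mast cell sums lie higher in every STSABs library than in any LPS library, and macrophage sums lie lower.

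Apoptotic bodies of the same cells induced with UV gave a second reading of the treatment. Between UVABs and STSABs 0 of 12465 genes passed the test (0%, edgeR quasi-likelihood, Benjamini-Hochberg). An unadjusted p under 0.05 was found for 198 genes (1.59%). That share is smaller than the 0.05 expected with no difference, so the test may be conservative here. DESeq2 and limma-voom each called 0, with 151 and 191 genes at that unadjusted level. The median absolute difference between the apoptotic body groups was 0.04 on the log2 scale. For the genes above, UVABs minus STSABs was -0.01 ± 0.09 for Bnip3, -0.06 ± 0.15 for Trib3, -0.04 ± 0.09 for Faah, 0.01 ± 0.10 for Tnf, 0.09 ± 0.10 for Ccl2, 0.00 ± 0.07 for Ifit1 and -0.11 ± 0.11 for S100a9. A p that misses the threshold does not show that the preparations act alike. Same-numbered libraries of these 2 groups tended to deviate together from their group means, most clearly number 2 (r = 0.54). Replicate 2 of UVABs thus shared part of the deviation of replicate 2 of STSABs. Differently numbered libraries had r from -0.346 to 0.154, which overlaps with the lowest same-numbered value of 0.116. With the number as a block 0 genes passed in a fit of those 10 libraries, with 457 of 11732 at that unadjusted level. This block was chosen after seeing the data.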

How the data were processed

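Poly(A) RNA libraries of mouse bone marrow macrophages were sequenced, per the labels' protocols from a dUTP-marked second strand. The authors deposited 1 table of estimated counts per gene for all libraries; 6.35% of values, in 2017 of 16909 genes, are not whole. HISAT2 and the mm39 build are named per the submitters' processing notes; the counting tool, strand setting and annotation were not given in the sources used here, so overlapping and antisense genes may share reads.

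Values were rounded to whole counts and fitted in edgeR 4.0.16 (R 4.3.3) with filterByExpr by group, TMM scaling and the quasi-likelihood F-test on group means over all 18 libraries, with p-values adjusted by Benjamini-Hochberg over 12465 tested genes, which held 99.97% of counts. Libraries held 17588357 to 18675283 counts in the 10 libraries compared. Alternatives were DESeq2 1.42.0, limma-voom (limma 3.58.1), other scalings and filters, fewer libraries and a replicate block. The fit was tested on simulated data. Deviations from the group means correlated at r from 0.116 to 0.54 between same-numbered STSABs and UVABs libraries. Between differently numbered libraries r ran from -0.346 to 0.154, so the ranges overlap. The labels state no pairing, and the block on number was chosen from these values.

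The comparison, the genes and the 43 gene lists were chosen with earlier results of these data known, and the ribosome biogenesis list was assembled after its values were seen. Genes were named from a panel, from the 25 largest changes in each direction among called genes (mean of 5 CPM or more in 1 of the groups, and no overlapping libraries), from the 15 largest CPM differences in each direction, and from up to 6 called members per list with the largest change; predicted genes were left out and exceptions are marked in the text. Motifs were searched in RefSeq promoter windows on GRCm38.p6, matched by gene symbol.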

Additional observations from a re-analysis of the deposited data

Results flagged for a closer look

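In 52 of 454 groups of 5 libraries, 1 library lay farther from its nearest neighbour, relative to the whole range, than Dixon's 95% limit for 5 values; chance alone gives about 1 in 20, and the groups are not independent. Replicate 2 of STSABs was that library in 35 of them. It was the highest STSABs library for Vegfa (595 CPM, next 351), Ddit4 (41.2 CPM, next 18), Hilpda (87.5 CPM, next 44), Arg1 (223 CPM, next 111), Chac1 (5.96 CPM, next 3.41) and Sesn2 (43.6 CPM, next 30). It was likewise highest for Mars1 (32 CPM, next 26.2), Lif (85.6 CPM, next 59.9), Ptges (67.3 CPM, next 53.4), Ifitm3 (1410 CPM, next 1160), Ifitm1 (2120 CPM, next 1160) and Cd14 (1430 CPM, next 1080). Further genes with replicate 2 highest were Nr4a1 (27.8 CPM, next 19.2), Mfge8 (1730 CPM, next 831), Smox (269 CPM, next 166), Klrb1b (60.7 CPM, next 42.9), Gls2 (40.2 CPM, next 18) and Pdgfa (13 CPM, next 9.28). The same held for Ramp3 (85.1 CPM, next 23.3), Procr (1660 CPM, next 1120), Cst3 (6010 CPM, next 4290), Ctsg (4.62 CPM, next 2.92), Prtn3 (11.8 CPM, next 7.79) and Gata2 (88.6 CPM, next 57.8). It was the lowest STSABs library for Dnajb9 (22.2 CPM, next 28.8), Cyp27a1 (29.5 CPM, next 41.3), Ch25h (239 CPM, next 315), Naaa (204 CPM, next 234), Tnf (292 CPM, next 399) and Il12b (1620 CPM, next 3190). Also lowest there were Lad1 (22.1 CPM, next 38.1) and St3gal5 (19.3 CPM, next 25.1). By summed level of a list, replicate 2 of STSABs was the highest for apoptotic cell uptake (14300 CPM, next 12600), the lowest for LXR targets and cholesterol efflux (4740 CPM, next 5130) and the highest for hypoxia targets outside glycolysis (9890 CPM, next 9090).

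Other libraries stood apart for single genes. Replicate 1 of LPS was the highest for Gnl3 (11.4 CPM, next 10), the highest for Rpl7l1 (77.2 CPM, next 71.3), the highest for Eef1a1 (7380 CPM, next 6620), the lowest for Ptges (23.7 CPM, next 32.8), the lowest for Stat2 (617 CPM, next 751), the highest for Fos (17.2 CPM, next 8.52) and the highest for Ltf (129 CPM, next 102). Replicate 3 of LPS was the highest for Cd70 (7.72 CPM, next 6.11). Replicate 4 of LPS was the highest for Ffar2 (2.64 CPM, next 2.24). Replicate 5 of LPS was the lowest for Il1b (4080 CPM, next 4480), the lowest for Il12b (2890 CPM, next 3770) and the highest for Gsdme (1.6 CPM, next 1.16). Replicate 3 of STSABs was the lowest for Epas1 (0.24 CPM, next 0.409). Replicate 4 of STSABs was the lowest for Sc5d (16.3 CPM, next 20.2) and the lowest for Tnfsf9 (67.4 CPM, next 84.6). Replicate 5 of STSABs was the highest for Pprc1 (8.28 CPM, next 7.19). Replicate 5 of LPS had the lowest summed level of inflammasome and pyroptosis genes (6350 CPM, next 6700).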

How the results depend on the processing

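The counts of genes higher and lower in STSABs than in LPS stayed within 1.5 times of 3544 and 3614 under all 22 other settings, at 2938 to 3984 higher and 3003 to 3774 lower. Leaving out 1 library at a time gave 3316 to 3441 higher and 3415 to 3576 lower, with 3400 and 3475 without replicate 2 of STSABs. DESeq2 called 3537 and 3511, limma-voom 3493 and 3611, and library totals without TMM 3984 and 3088. A replicate block gave counts of 3657 and 3774; same-numbered LPS and STSABs libraries shared only a number (r from -0.0279 to 0.0693), so this block is not a paired design. Of 184 genes named, 169 kept direction and call in every setting that tested them and 0 reversed; 14 were removed by the filter in at least 1 setting. Between UVABs and STSABs 0 genes passed under edgeR, DESeq2 or limma-voom in these settings. An unadjusted p under 0.05 was found for 91 to 457 genes, in each setting a smaller share than the 0.05 expected with no difference. The block within these 2 groups was chosen after seeing the data. Depth of 17588357 counts or more leaves genes under about 1 CPM, such as Epas1 and Ndufa4l2, resting on few reads per library.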
